A study of Homo sapiens with 2 samples.

Results

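KMT2D peaks on chromosome 21 were examined in OCI-LY7 cells, a line established from a diffuse large B-cell lymphoma of the germinal centre type. Every peak that the authors' list places on chromosome 21 was taken, which gave 290 of 24824 listed peaks. They were divided by the position of their highest point (hg19) into 96 peaks between bases 31500000 and 42600000 (bands q22.1 to q22.2), 172 peaks from base 42600000 to the end (band q22.3), and 22 peaks below base 31500000, called the proximal interval here (everything up to band q21, the short arm included). The list comes from 1 chromatin immunoprecipitation sequencing (ChIP-seq) library made with an antibody against the N-terminus of KMT2D, beside 1 input library made without antibody. Both libraries are labelled wild type in genotype and came from cells fixed with 1% formaldehyde. With 1 ChIP library no replicate spread could be estimated and no test was run, and the sequencing depth of the library is unknown. Intervals in parentheses are 95% intervals for counting error over peaks, which are not independent replicates, and they say nothing about how another library would vary.

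KMT2D (MLL4) is a histone methyltransferase that marks active enhancers by methylating histone H3 at lysine 4, and its gene is among those most often mutated in B-cell lymphoma. Chromosome 21 is the smallest human autosome, and its genes are known to be crowded toward the end of the long arm. Band q21 holds few genes, among them the neural adhesion gene NCAM2 and the amyloid precursor gene APP. Bands q22.1 and q22.2 hold the blood-cell transcription factor RUNX1, the interferon receptor genes IFNAR1 and IFNAR2, and the ETS-family factors ETS2 and ERG. Band q22.3 is known as gene-rich and holds the leukocyte integrin gene ITGB2, the co-stimulatory ligand gene ICOSLG and AIRE, a regulator of tolerance in the thymus. These places are general knowledge of the bands. No listed peak was assigned to a gene, since no annotation on hg19 was used.

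Listed peaks were denser in q22 than in the proximal interval, and densest in q22.3. The interval of q22.1 to q22.2 held 96 peaks over 11.1 Mb, and q22.3 held 172 peaks over 5.38 Mb. The proximal interval, counted from the first listed peak, held 22 peaks over 21.6 Mb. Peak density was thus 8.65 peaks per Mb in q22.1 to q22.2 (exact Poisson interval 7.01 to 10.6), 31.97 peaks per Mb in q22.3 (27.4 to 37.1) and 1.02 peaks per Mb in the proximal interval (0.638 to 1.54). The density of q22.1 to q22.2 was 8.50 times that of the proximal interval (exact conditional interval 5.30 to 14.2), and that of q22.3 was 31.4 times it (20.1 to 51.4). The proximal length includes a stretch around the centromere. Counted from the first peak beyond 14 Mb, which leaves that stretch out, these ratios were 6.63 (4.10 to 11.2) and 24.5 (15.5 to 40.6). Within q22, the density of q22.3 was 3.70 times that of q22.1 to q22.2 (2.86 to 4.80). The intervals were chosen with earlier results of this list known, so these ratios are a description of it.

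A contrast in the same direction was present in other ways of counting. Peaks covered 0.649% of q22.1 to q22.2, 2.18% of q22.3 and 0.0760% of the proximal interval. Height is a whole number that the authors give for each peak, in units that are not stated. Of the summed height of the chromosome's peaks, q22.1 to q22.2 held 33.0%, q22.3 held 58.0% and the proximal interval held 9.04%. By length, q22.1 to q22.2 made up 29.1% of the span, q22.3 made up 14.1% and the proximal interval made up 56.7%. Among peaks of height 75 or more, q22.1 to q22.2 had 10 (0.901 per Mb), q22.3 had 17 (3.16 per Mb) and the proximal interval had 5 (0.231 per Mb). Tall peaks therefore differed in density in the same direction as all peaks, although the 5 proximal ones made the lowest count. The ratio of q22.3 to the proximal interval was 20.1 (8.79 to 53.6), with a wide interval, for the 25% of the whole list with the highest value of the authors' score, a column that ranks peaks nearly as height does. That value was below the 31.4 over all peaks, which its interval still includes. Among these highest-scoring 25%, 35 peaks in q22.3 and 7 proximal peaks were left.

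**Figure D1:**
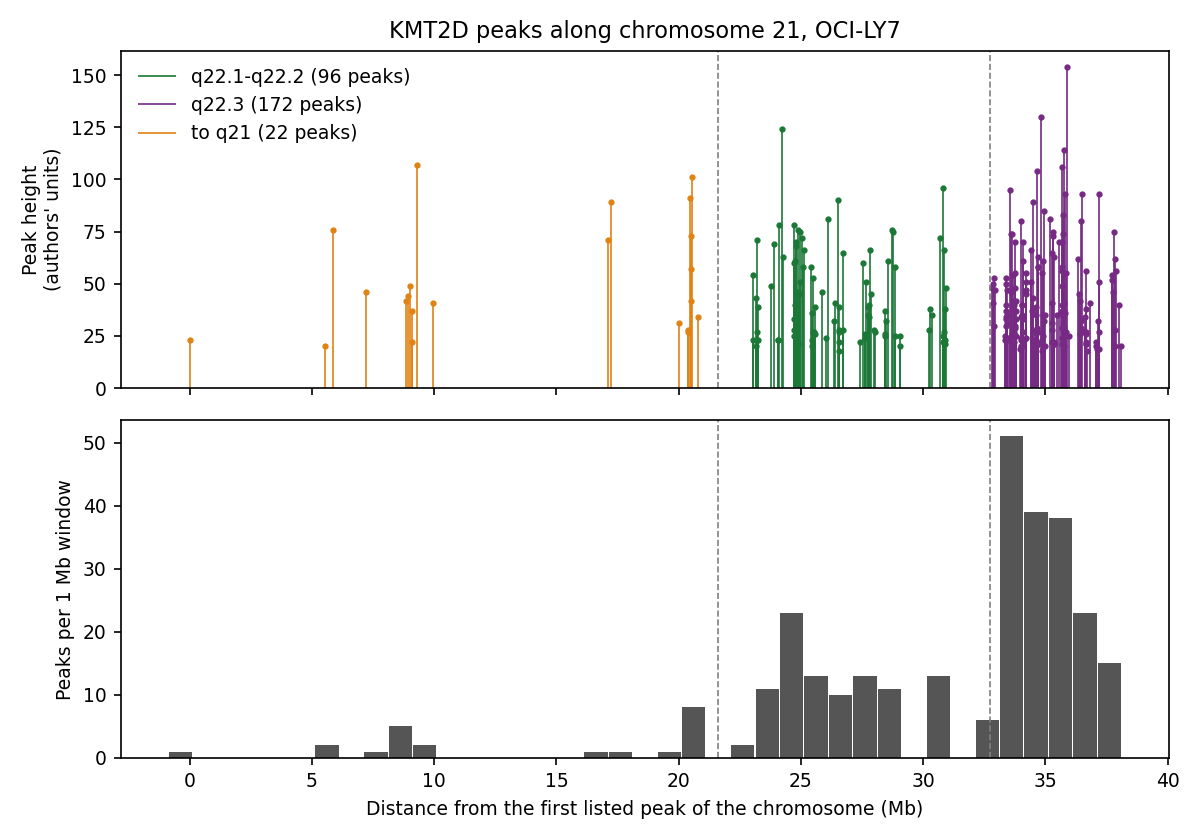
Height of each of the 290 listed peaks (top) and number of peaks per 1 Mb window (bottom) against distance from the first listed peak of chromosome 21, in Mb. Dashed lines mark the boundaries between the intervals, and the fullest window, with 51 peaks, lies just beyond the second of them.

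Both boundaries fell into stretches without a listed peak. The stretch around base 31500000 was 2.26 Mb long, from 30671585 to 32930238, and the one around base 42600000 was 1.87 Mb long, from 40818040 to 42693039. Just above the first boundary, in q22.1, lay peaks at 32930238 to 32930544 (height 23) and at 32930756 to 32932489 (height 54). Just below it, in the proximal interval, lay peaks at 30671029 to 30671585 (height 34) and at 30445436 to 30446545 (height 101). Just above the second boundary, in q22.3, lay peaks at 42693039 to 42693722 (height 48) and at 42739512 to 42740427 (height 50). Just below it, in q22.1 to q22.2, lay peaks at 40817441 to 40818040 (height 48) and at 40760171 to 40760876 (height 38). The members next to the boundaries were thus of low to moderate height, apart from the one of height 101. The second boundary stood only 0.0930 Mb before the next peak. With both boundaries 1 Mb higher, the ratio of q22.3 to q22.1 to q22.2 was 2.81 (2.20 to 3.60), because 31 peaks then passed to the lower interval.

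Each chromosome 21 interval was set beside whole chromosomes of the same list. At 7.61 peaks per Mb (6.76 to 8.54), chromosome 21 as a whole ranked 14 of 23 by density. It had 0.875 times the density of the other autosomes pooled (0.777 to 0.983), which was 8.70 peaks per Mb. Its span starts at 1 peak before the centromere and so includes a stretch of 5.52 Mb around the centromere without a listed peak. The rank and the ratio were not recomputed without that stretch, so a lower density than on the other autosomes cannot be read from them. Over all listed peaks, band q22.3 lay above all 23 chromosome values. Its density was 1.20 times that of chromosome 19 (1.02 to 1.40), the densest chromosome, and 1.51 times that of chromosome 22 (1.27 to 1.79). The lowest listed height was 18 on chromosome 21 but 26 on chromosome 19, so weaker peaks were counted on chromosome 21. At a height of 26 or more, q22.3 had 23.6 peaks per Mb. That was below the 26.7 of chromosome 19, where all 1570 peaks reached this height. The interval of q22.1 to q22.2 fell between chromosomes 15 and 6, near the middle of the order. The proximal interval lay below all 23 chromosome values, at 0.216 times chromosome 13 (0.134 to 0.331), 0.228 times chromosome 4 (0.142 to 0.347) and 0.248 times chromosome X (0.154 to 0.379). A stretch of a few Mb can reach extremes that a whole chromosome averages out, so these ranks do not show that chromosome 21 is unusual among stretches of this size.

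**Figure D2:**
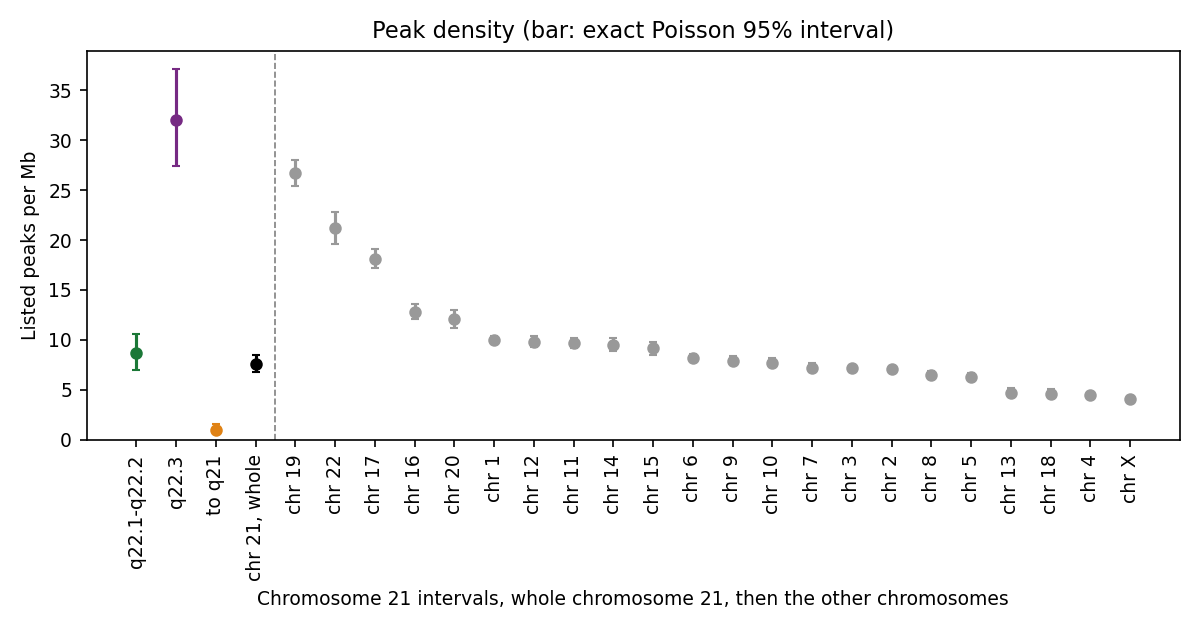
Listed peaks per Mb in the 3 chromosome 21 intervals, in chromosome 21 as a whole and in the other chromosomes from highest to lowest, with exact Poisson 95% intervals. Band q22.3, at 31.97, lies above chromosome 19, at 26.7, and the proximal interval, at 1.02, lies below chromosome X, at 4.10. The lowest listed height differs between chromosomes and was 18 on chromosome 21 and 26 on chromosome 19.

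A comparison over equal shares of each chromosome does not remove that limit, since an equal share is a longer stretch on a longer chromosome. Peaks were counted in the fullest continuous stretch that spans 14.1% of a chromosome, which is the share that q22.3 takes of chromosome 21. On chromosome 21 this stretch was q22.3 itself and held 59.3% of the peaks. On the other 22 chromosomes it held 21.8 to 46.1%, with a median of 29.1%, and chromosome 9 came closest. The stretch was 5.38 Mb long on chromosome 21, 19.9 Mb on chromosome 9 and up to 35.1 Mb, on chromosome 1. Chromosome 22, whose stretch of 4.75 Mb was nearest in length, had 24.3% in it. So these shares do not compare stretches of the same size. On a finer scale chromosome 21 stood apart less. With windows of 1 Mb, 10.3% of its windows held 50% of its peaks, the lowest share of the 23 chromosomes. Without the peak before the centromere, and so without the empty windows after it, this share was 12.1%. That was above chromosome 9 (10.6%), chromosome X (11.2%) and chromosome 4 (11.5%), which kept all their empty windows. Whether chromosome 21 stays the lowest with all chromosomes treated alike was not examined. With windows of 0.5 Mb over the full span chromosome 21 ranked 4 of 23 from the lowest, at 9.09%, and with windows of 2 Mb 5 of 23, at 15.0%. The choice of stretch length followed from q22.3, so the place of chromosome 21 in the stretch comparison was not independent of how the intervals were chosen.

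Gene number was compared over whole chromosomes, since this needs no positions. A RefSeq table on GRCh38 lists 239 protein-coding genes on chromosome 21, which gave 1.21 listed peaks per gene, against a median of 1.32 over the 22 autosomes and a range of 0.732 to 1.58 over all 23 chromosomes. Of the 239 genes, 49 belong to the KRTAP family, which encodes keratin-associated proteins of hair. Without them chromosome 21 had 1.53 peaks per gene. The other chromosomes were not adjusted for gene families in this way.

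The proximal interval was nearly empty and its peaks stood far apart. Of its 22 windows of 1 Mb, 13 held no peak, and its median window held 0. The empty ones include those from 10 to 15 Mb, in the stretch that holds the centromere. It contained the longest stretch without a peak on the chromosome, 7.16 Mb from 19816483 to 26979480. The second longest, 5.52 Mb from 9882115 to 15399500, is known to include the centromere and unassembled sequence, and the third, 2.78 Mb, ran from 27108428 to 29889374. Of the 22 peaks, 1 lay before the centromere, at 9882012 to 9882115, with a height of 23 and a width of 103 bp. Without that peak the interval held 21 peaks over 16.1 Mb, or 1.30 peaks per Mb (0.807 to 1.99).

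The remaining proximal peaks fell into few places. From 18715212 to 19816483 there were 7 peaks with heights of 22 to 107. The tallest of them, at 19191069 to 19192409, was 1340 bp wide, stood 206 kb from its nearest neighbour and ranked 5 by height on the chromosome. A pair at 26979480 to 26980232 (height 71) and 27106861 to 27108428 (height 89) bounded the 7.16 Mb stretch on its far side. The last 1.5 Mb, from 30 Mb to the boundary, held 8 of the 22 peaks, or 5.33 peaks per Mb (2.30 to 10.5), against 13 peaks over the 14.6 Mb before it, or 0.890 peaks per Mb (0.474 to 1.52). These 8 included heights of 91 at 30364673 to 30365681 and 101 at 30445436 to 30446545. So the low density of the proximal interval applied mainly to the part below 30 Mb, a limit chosen after its values were seen.

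The interval of q22.1 to q22.2 was filled more evenly, with interruptions. Of its 10 whole 1 Mb windows, 2 were empty and the median window held 11 peaks. Its fullest window, from 34 to 35 Mb, held 23 peaks with a median height of 51, and these covered 22.8 kb. It tied with the window from 46 to 47 Mb in number of peaks. The windows from 33 to 34 Mb and from 35 to 39 Mb held 10 to 13 peaks each. No peak was listed from 39 to 40 Mb, 13 were listed from 40 to 41 Mb, and none from 41 to 42 Mb. The empty windows lay on both sides of a filled one.

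In q22.3 each of the 5 windows from 43 Mb on held peaks. From 43 to 48 Mb they held 51, 39, 38, 23 and 15 peaks, so the number was lower in the last 2 windows, at the end of the chromosome. The last window is not covered in full, since the last peak ended at 47979661. The 5 fullest windows of the chromosome were those from 43 to 47 Mb and the one from 34 to 35 Mb. Together they held 174 peaks, or 60.0% of the chromosome's total. Without the fullest window, q22.3 still had 27.1 times the density of the proximal interval (17.1 to 44.9) and 3.19 times that of q22.1 to q22.2 (2.42 to 4.22).

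Peak height and width, which the intervals were not defined by, had medians whose counting intervals overlapped. Overlap does not show that they are equal. The median height was 38.5 in q22.1 to q22.2 (order-statistic interval 32 to 45), 35.5 in q22.3 (32 to 40) and 43 in the proximal interval (31 to 73), in the authors' units. The median width was 685 bp (481 to 800 bp) in q22.1 to q22.2, 617 bp (505 to 715 bp) in q22.3 and 766 bp (444 to 1008 bp) in the proximal interval. All of these intervals overlapped, and with 22 proximal peaks the precision there was low. A height of 75 was reached by 10.4% of peaks in q22.1 to q22.2 (exact binomial interval 5.11 to 18.3%), by 9.88% in q22.3 (5.86 to 15.4%) and by 22.7% in the proximal interval (7.82 to 45.4%). These shares too overlapped in their intervals, so the precision does not allow an order. The median of the authors' score was 22.9 in q22.1 to q22.2, 21.8 in q22.3 and 28.4 in the proximal interval. The highest-scoring 50% of the whole list held 43 of 96 peaks of q22.1 to q22.2, 73 of 172 of q22.3 and 14 of 22 proximal ones. Whether the intervals differ in score was not tested.

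The weakest listed peak had a height of 18 in q22.1 to q22.2, 18 in q22.3 and 20 in the proximal interval. For heights of 28 to 32, the median significance value, which is negative and more negative for stronger peaks, was -22.3 over 8 peaks in q22.1 to q22.2, -22.9 over 16 peaks in q22.3 and -24.3 over 2 proximal peaks. Over the whole chromosome it was -22.9, and other chromosomes ran from -17.2 on chromosome 19 to -29.0 on X. Thus the lowest listed height, which varied between chromosomes, varied little between intervals of chromosome 21. The value at a given height, which also varied between chromosomes, was close in both parts of q22. For the proximal interval, 2 peaks are too few to compare it.

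**Figure D3:**
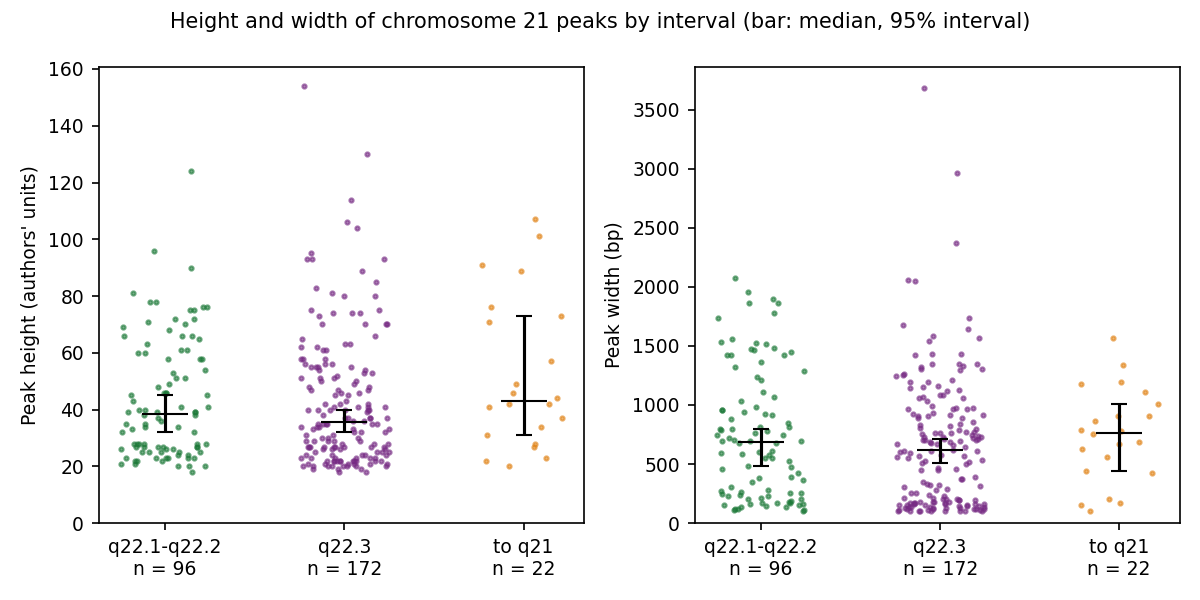
Height in the authors' units (left) and width in bp (right) of each listed peak of chromosome 21 by interval. Horizontal bars mark medians and whiskers their 95% order-statistic intervals, and the median heights of 38.5 (q22.1 to q22.2), 35.5 (q22.3) and 43 (to q21, the proximal interval) have intervals that overlap.

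As a whole, chromosome 21 had peaks much like those elsewhere. Its median height was 37 (34 to 40), against 39 (39 to 40) on the other chromosomes, and its median width was 669 bp (571 to 720 bp), against 608 bp (600 to 617 bp). Peaks of up to 200 bp made up 23.1% (18.4 to 28.4%), against 21.02% (20.5 to 21.5%) elsewhere. Its tallest peak reached 154, against 320 elsewhere, and none of its 290 peaks was among the 30 of 24824 listed at minus infinity for significance. With 290 peaks against 24482 on the other chromosomes, neither of these values sets chromosome 21 apart. Wider peaks were also taller, with a Spearman correlation of 0.88 over these 290 peaks of 1 library, given as a description.

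The 10 tallest peaks of chromosome 21 had heights of 95 to 154, with 2 in q22.1 to q22.2, 6 in q22.3 and 2 in the proximal interval, and 6 of the 10 stood alone. The tallest, at 45758301 to 45759733 in q22.3, reached 154, which was 4.16 times the chromosome's median, and was 37.7 kb from its nearest neighbour. It ranked 99 of the 24772 peaks on chromosomes 1 to 22 and X. The second, at 44710054 to 44711023, reached 130 with a width of only 969 bp and had the most extreme significance value of the chromosome, -115.6. The third lay in q22.1 to q22.2, at 34099819 to 34101180, with a height of 124. The fourth, at 45626168 to 45627848 (height 114), belonged to a cluster of 4. Also in q22.3 were peaks at 45574550 to 45575802 (height 106), at 44527138 to 44528446 (height 104) and at 43429309 to 43431354 (height 95). The remaining one in q22.1 to q22.2, at 40684890 to 40686752, reached 96. Both proximal members, of heights 107 and 101, are described above.

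Breadth picked out other places than height. The 10 widest peaks measured 1859 to 3683 bp, with 5 in q22.1 to q22.2, 5 in q22.3 and 0 in the proximal interval, and only 2 of them were among the 10 tallest. The widest, at 43481192 to 43484875, was 3683 bp wide with a height of 74, and its highest point lay 74.1% of the way from start to end. The second, at 45661611 to 45664571, was 2960 bp wide with a height of 93 and its highest point at 84.0%. The third, at 45563008 to 45565379, was 2371 bp wide with its highest point at 24.7%. Thus in the 3 widest peaks the highest point lay toward one end. The widest of q22.1 to q22.2, at 34774955 to 34777032, was 2077 bp wide and reached a height of only 46.

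Peaks of q22.3 stood closest together. The median distance to the nearest listed peak was 7.07 kb in q22.1 to q22.2 (1.62 to 10.8 kb), 1.21 kb in q22.3 (0.730 to 1.85 kb) and 84.0 kb in the proximal interval (4.71 to 355 kb). Neighbours no more than 12500 bp apart were joined into clusters of 2 or more. Of the peaks, 61.5% (51.0 to 71.2%) were clustered in q22.1 to q22.2, 81.4% (74.8 to 86.9%) in q22.3 and 36.4% (17.2 to 59.3%) in the proximal interval. A higher share in clusters follows in part from a higher density, so these shares are not independent of the density above. For chromosome 21 as a whole the share was 71.4% (65.8 to 76.5%), against 54.1 to 70.4% on the other chromosomes. Its interval overlapped that of chromosome 19 (68.1 to 72.6%), the next highest. With other sets of peaks chromosome 21 was not the highest. At a height of 26 or more it had 63.6%, against 70.4% on chromosome 19. After peaks under 500 bp apart were merged it had 56.7%, against 61.6%. Among the highest-scoring 50% it had 40.8%, against 58.0%.

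**Figure D4:**
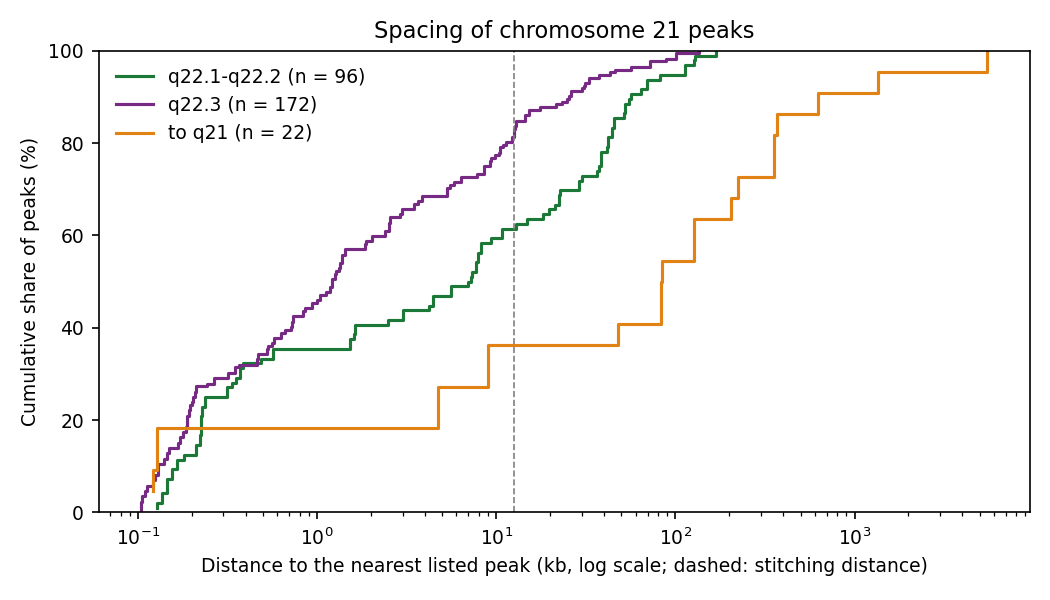
Cumulative share of peaks (%) against the distance to the nearest listed peak (kb, log scale) for the 3 intervals of chromosome 21. The curve of q22.3 lies left of the curve of q22.1 to q22.2 beyond about 1 kb, where the curve of the 22 proximal peaks lies farthest right.

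Clusters in q22.3 were larger than those elsewhere on the chromosome. The chromosome had 64 clusters, of which 23 lay in q22.1 to q22.2, 37 in q22.3 and 4 in the proximal interval. Clusters of 5 or more peaks numbered 1 in q22.1 to q22.2, 11 in q22.3 and 0 in the proximal interval. The median span of a cluster was 4.37 kb in q22.1 to q22.2, 10.3 kb in q22.3 and 3.83 kb in the proximal interval. All 4 proximal clusters were pairs.

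The 5 clusters with the most peaks were all in q22.3. The first, at 45552960 to 45580198, held 10 peaks in 27.2 kb. They filled 29.1% of it, and their heights had a median of 44.5 and a maximum of 106. It contained the third widest peak of the chromosome. Clusters at 43639067 to 43679114 (9 peaks over 40.0 kb, tallest 70) and at 43916075 to 43956637 (8 peaks over 40.6 kb, tallest 70) were less densely filled, at 17.2% and 13.6%. A compact cluster at 43281403 to 43300095 held 8 peaks over 18.7 kb, covered 34.3% of its span and had even heights, from 30 to 50. The fifth, at 46529534 to 46548922, held 7 peaks, of which 4 were at most 200 bp wide, and covered 10.7% of its span. The single cluster of 5 in q22.1 to q22.2, at 36419489 to 36423860, spanned only 4.37 kb, with heights of 18 to 39.

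Fewer clusters of q22.1 to q22.2 than of q22.3 held several strong peaks. Clusters with at least 2 peaks of the highest-scoring 50% of the whole list numbered 3 of 23 in q22.1 to q22.2 (13.04%, 2.78 to 33.6%), 18 of 37 in q22.3 (48.6%, 31.9 to 65.6%) and 2 of 4 in the proximal interval. The intervals of both parts of q22 overlapped slightly. Clusters of q22.3 also held more peaks, with 140 in 37 clusters against 59 in 23 in q22.1 to q22.2. A larger cluster has more peaks that can be among the highest-scoring, and these shares were not adjusted for cluster size. In q22.1 to q22.2, another 13 clusters had 1 such peak and 7 had 0. The distance between neighbours in a cluster had a median of 0.436 kb over 36 gaps in q22.1 to q22.2, 1.28 kb over 103 gaps in q22.3 and 2.42 kb over 4 gaps in the proximal interval. In 10 of 23 clusters of q22.1 to q22.2, 9 of 37 of q22.3 and 2 of 4 proximal clusters, every gap was under 1 kb. The authors' peak caller may draw 1 broad region as several short peaks, and whether it did so here was not tested.

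When weak peaks were left out, the clustered shares of both parts of q22 moved apart. Among the highest-scoring 50% of peaks, 13.95% (5.30 to 27.9%) of 43 peaks in q22.1 to q22.2 were clustered, 58.9% (46.8 to 70.3%) of 73 in q22.3 and 28.6% (8.39 to 58.1%) of 14 proximal peaks. On the other chromosomes this share ran from 14.3 to 58.0%, with chromosome 19 at the top. It was 33.6% (30.04 to 37.4%) on chromosome 6 and 33.7% (29.2 to 38.5%) on chromosome 15, whose densities over all peaks were nearest to that of q22.1 to q22.2. After peaks under 500 bp apart were merged, 38.96% (28.05 to 50.8%) were clustered in q22.1 to q22.2, 71.6% (63.4 to 78.9%) in q22.3 and 20.0% (5.73 to 43.7%) in the proximal interval, against 41.3 to 61.6% on the other chromosomes. The intervals for both parts of q22 did not overlap over all peaks or in either of these settings. The interval of the proximal share lay below that of q22.3 over all peaks and after merging, and overlapped it among the highest-scoring 50%. It overlapped that of q22.1 to q22.2 in each of these settings.

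**Figure D5:**
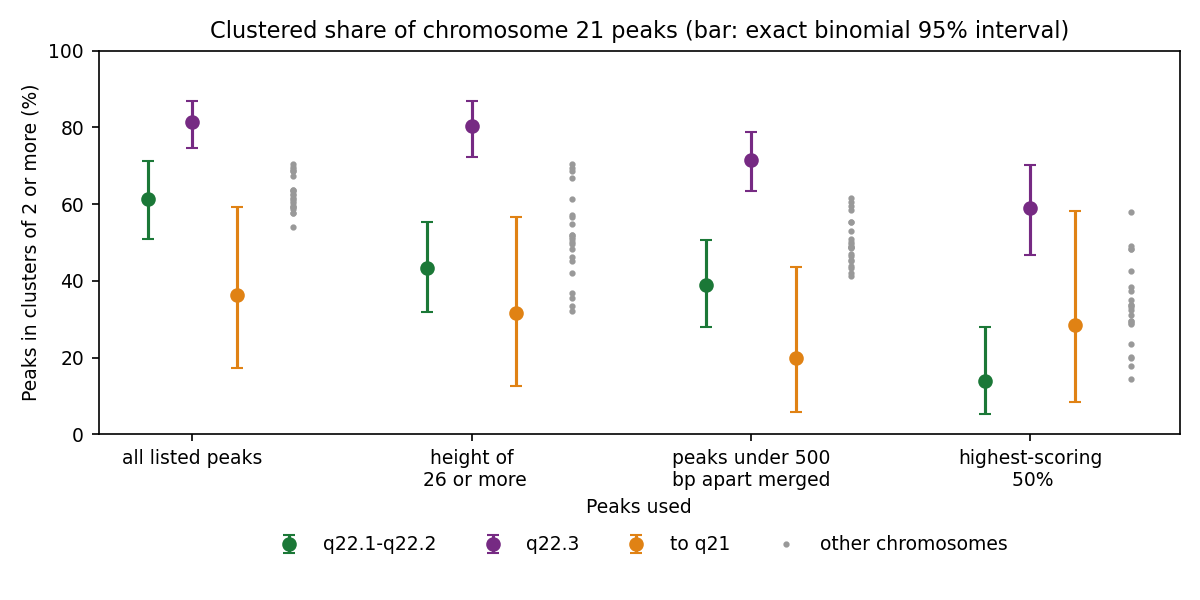
Share of peaks in clusters of 2 or more (%) in the 3 intervals of chromosome 21 and, as grey points, on each other chromosome, for 4 sets of peaks, with exact binomial 95% intervals. Among the highest-scoring 50%, q22.1 to q22.2 was at 13.95% and q22.3 at 58.9%.

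Clustered peaks were lower and narrower than lone ones on chromosome 21, as on the other chromosomes. On chromosome 21 heights had medians of 35 for 207 clustered peaks (30 to 38) and 46 for 83 lone ones (40 to 56), and widths had medians of 571 bp (450 to 683 bp) and 812 bp (722 to 976 bp) for the same peaks. On the other chromosomes heights had medians of 35 (35 to 36) for clustered and 47 (47 to 48) for lone peaks, and widths had medians of 513 bp (500 to 524 bp) and 744 bp (733 to 756 bp). By interval, in q22.1 to q22.2 the median height was 28 for clustered peaks (26 to 39) and 49 for lone ones (41 to 66), and widths had medians of 380 bp (250 to 676 bp) for clustered and 924 bp (765 to 1213 bp) for lone peaks. In q22.3 the median height was 35 for clustered peaks (31 to 40) and 38.5 for lone ones (24 to 56), and widths had medians of 605 bp (455 to 712 bp) for clustered and 711 bp (192 to 1055 bp) for lone peaks. The intervals of the medians stayed apart in q22.1 to q22.2 and overlapped in q22.3. The difference between both parts of q22 was not tested, and the 32 lone peaks of q22.3 gave a wide interval. The proximal interval had 8 clustered and 14 lone peaks, with median heights of 39.5 (22 to 91) and 45 (31 to 89).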

How the data were processed

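The authors deposited 1 list of KMT2D peaks with 11 columns and no header, so column meanings were read from the values. The submitters' processing notes name CASAVA 1.8.2 and the genome build hg19. How reads were aligned, how peaks were called and against what threshold, what the input was used for, and whether positions count from 0 or 1 is not given in the sources used here. Height is the authors' signal column, a whole number per peak. The deposited score and the deposited significance value (a score that was never above -15) are the authors', as is the relative place of the highest point in percent. They serve here to describe, rank and filter peaks within the list. For all 24824 peaks the width equalled end minus start.

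Density is peaks per Mb of the span between the outermost peaks of a chromosome, and peaks at most 12500 bp apart were stitched. Chromosomes 1 to 22 and X were compared. No test was run on 1 library. The members, intervals and alternatives were chosen with earlier results of these data known. Items named are the 10 tallest and 10 widest peaks, the 5 clusters with the most peaks, the 5 fullest 1 Mb windows, the 3 longest empty stretches and the peaks beside each boundary. Clustering among strong peaks by chromosome, the stretch comparison and peaks per gene were added after seeing the data. Genes and sequences at peaks were not analysed here, because they need hg19. Stitching and intervals were tested on simulated data. Work was done in Python 3.11.15 (matplotlib 3.10.9, scipy 1.17.1, pandas 2.3.3, numpy 2.4.6).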

Additional observations from a re-analysis of the deposited data

How the results depend on the processing

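A value was taken as moved if it fell outside its counting interval in the report, and the number of peaks if it changed more than 1.5 times. This held for 21 of 83 alternative values, 62 did not move, and no recomputed density ratio crossed 1. Recomputed ratios were those between the intervals and that of chromosome 21 to the other autosomes. Ratios of an interval to a single chromosome were not among them. At a height of 26 or more, q22.3 had 23.6 peaks per Mb, below the 26.7 of chromosome 19. The ratio to the other autosomes was not recomputed without the peak before the centromere. Fewer peaks give smaller counts by construction, score or height limits raise medians, and the stitching distance sets clustered shares in its own direction. The cause was not tested for the other shifts. The highest-scoring 50% gave 130 peaks, a density of 0.770 times the other autosomes, median heights of 61 (q22.1 to q22.2) and 56 (q22.3), median widths of 1213 and 992 bp, and clustered shares of 13.95% and 58.9%. The highest-scoring 25% gave 20.1 for q22.3 over the proximal interval. A minimum height of 26 gave median heights of 45.5 and 43, a median width of 759 bp in q22.3 and a clustered share of 43.2% in q22.1 to q22.2. Merging gave median widths of 847 and 733 bp and clustered shares of 38.96% and 71.6%. Boundaries 1 Mb higher gave 2.81 for q22.3 over q22.1 to q22.2. Stitching at 5 kb put 46.9% and 68.6% in clusters, and at 25 kb 89.5% in q22.3. No paired analysis was possible because the list comes from 1 library. Depth is unknown, so binding in stretches with no listed peak is unknown.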
